A study of Homo sapiens with 5 samples.

Results

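TSC22D3, PER1, KLF9, DUSP1 and CEBPD are genes that respond to glucocorticoids, and KLF9 is also a classical target of the thyroid hormone T3. They were taken by name as known hormone-responsive genes, but with earlier results of these data already known. All 5 are among the 2694 genes for which expression values were deposited. The data are total RNA sequencing of TC28a2 cells, an established human chondrocyte line from costal cartilage, kept in growth medium (GM, n = 2 libraries) or hypertrophic medium (HM, n = 3 libraries) and collected on day 5. Growth medium was high-glucose DMEM with 10% fetal bovine serum, and no dexamethasone or T3 was added to it. Hypertrophic medium had the same base with serum lowered to 1%, and held 10 nM dexamethasone, 1 µM T3, BMP-2 at 100 ng/ml and GDF-5 at 10 ng/ml, 1% of an insulin, transferrin and selenium supplement, 50 µg/ml ascorbic acid and 10 mM β-glycerophosphate, renewed every 2 days. Both media held antibiotics. Because the media differ in all of these components at once, the parts of dexamethasone, T3, serum and the growth factors in any difference cannot be told apart. How long before collection the medium was last renewed, and the hour of collection, are not given in the sources used here.

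Each value is a log2 value that the authors normalized, and a difference is always the HM mean minus the GM mean on that scale. The exact transformation is not named, so a difference need not equal the log2 fold change of read counts and no fold is given. The paper reports as many transcripts up- and downregulated in HM as listed genes are higher and lower here. The list is therefore taken as the outcome of the authors' test of these same libraries, with hardly any unchanged gene in it. The counts below have to be read against that. A gene absent from the list was not among those reported as changed. The study's methods describe replicates in general as biological, but neither they nor the labels say whether these libraries of a single cell line came from separate cultures, so p-values measure only the spread between these samples, which may be technical in part. The listed genes were selected for a difference in these same libraries, so a small p-value here is no independent evidence of one. The adjustment covers the listed genes only, so an adjusted p is not a false discovery rate over all genes. Read numbers behind the values are unknown. On the first principal component, with 89.7% of the variance over the listed genes, the media separated. On the next, with 5.52%, HM replicate 1 stood at -8.97, and HM replicates 2 and 3 at 2.49 and 8.24, so the results for the 5 genes are also given without HM replicate 1. The median listed value was 8.17 and 8.18 in the GM libraries and 8.62, 8.52 and 8.43 in HM replicates 1, 2 and 3.

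The chondrocyte label was checked on 16 marker genes, of which 5 were listed. SOX9, the master regulator of the lineage, had 10.77 ± 0.11 (SD, n = 2) in GM and 11.41 ± 0.21 (SD, n = 3) in HM, and the cartilage collagen gene COL2A1 had 7.70 ± 0.19 and 9.23 ± 0.24. With ACAN, COL9A2 and COL9A3, all 5 were called higher in HM (limma adjusted p under 0.05), as were 62.5% of all listed genes, which is also the background for the marker counts that follow, with differences from 0.65 to 1.53, and the 4 other than SOX9 also after each library was centred on its median. Their summed level, after values were taken back from the log2 scale, was 4281 and 4170 in GM and 9185, 7940 and 7119 in HM replicates 1, 2 and 3. Of 8 hypertrophic chondrocyte markers, MMP13 and PTH1R were listed and called higher, with differences of 0.70 and 1.06. Among markers of other cell types, 3 of 8 for fibroblasts or tendon cells (MKX, PDGFRA and LUM), 1 of 8 for osteoblasts (PHEX), 1 of 7 for adipocytes (LPL) and 1 of 6 for white blood cells (CD14) were listed and higher in HM. The fibroblast or tendon list, with MKX as its gene of highest value in HM, summed to 507 and 494 in GM and 1464, 1072 and 1129 in HM. Of 6 endothelial markers 3 were listed, with differences of -1.19 for CDH5, 1.39 for TEK and 0.49 for CLDN5, and the list summed to 390 and 384 in GM and 380, 314 and 327 in HM. The remaining markers of these lists are not among the listed genes, and the part of other cell types in the differences was not tested. Outside the chondrocyte list, the calls of MMP13, PHEX and CLDN5 were lost after median centring (limma adjusted p = 0.116, 0.0501 and 0.399). Of all 2694 listed genes, 845 were called higher and 987 lower after it. In such bulk RNA, fewer cells expressing a gene and less of its RNA per cell cannot be told apart.

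Glucocorticoids such as dexamethasone bind the glucocorticoid receptor, which moves to the nucleus and binds paired, inverted copies of a short motif, while T3 binds thyroid hormone receptors that sit on DNA with retinoid X receptors, often at directly repeated motifs. In the growth plate, T3 promotes the hypertrophy of chondrocytes, and glucocorticoids act on their proliferation and matrix. TSC22D3 encodes GILZ, an anti-inflammatory leucine zipper protein, PER1 a repressor of the circadian clock, KLF9 a Krüppel-like transcription factor, DUSP1 a phosphatase that inactivates MAP kinases, and CEBPD a C/EBP transcription factor of the acute-phase response.

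All 5 genes lie on the minus strand. In GENCODE annotation on GRCh37, TSC22D3 spans chrX:106956451-107020572 with 3 exons in its main transcript and 18 transcripts in all, and PER1 spans chr17:8043790-8059824 with 23 exons. KLF9 spans chr9:72999520-73029573 with 2 exons and DUSP1 chr5:172195099-172198198 with 4 exons, while CEBPD has 1 exon. TSC22D3 overlaps NCBP2L and DUSP1 overlaps a long noncoding RNA gene, both on the opposite strand, and PER1 overlaps an unnamed protein-coding model on its own strand. None of these neighbours is among the listed genes. The library kit keeps strand, but whether the counting used it is not stated, so reads of the overlapping stretches could not be assigned with certainty.

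Promoter windows of 250 bases before the start were read from the RefSeq table for GRCh38.p14, which matched 4 of the 5 genes, TSC22D3 with 4 windows and PER1, KLF9 and DUSP1 with 1 each. Both strands were searched for the full glucocorticoid element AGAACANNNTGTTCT, its core ACANNNTGT, its hexamer AGAACA, the T3 element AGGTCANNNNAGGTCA, its hexamer AGGTCA, the E-box CACGTG bound by clock factors, the cAMP response element TGACGTCA with its core TGACG, and the TATA box TATAAA. Hexamers and cores are contained in the longer motifs, so their matches can overlap. Of the windows with matches, 3 from genes that moved in opposite directions are shown, on the minus strand, 5′ to 3′, with the matches in capitals: PER1 (chr17:8152405-8152654), DUSP1 (chr5:172771196-172771445) and a start of TSC22D3 inside the gene (chrX:107717063-107717312).
PER1: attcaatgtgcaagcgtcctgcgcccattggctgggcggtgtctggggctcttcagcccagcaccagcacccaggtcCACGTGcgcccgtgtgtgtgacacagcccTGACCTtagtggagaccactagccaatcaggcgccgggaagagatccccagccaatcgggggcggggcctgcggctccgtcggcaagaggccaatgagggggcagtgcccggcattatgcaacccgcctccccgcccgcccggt
DUSP1: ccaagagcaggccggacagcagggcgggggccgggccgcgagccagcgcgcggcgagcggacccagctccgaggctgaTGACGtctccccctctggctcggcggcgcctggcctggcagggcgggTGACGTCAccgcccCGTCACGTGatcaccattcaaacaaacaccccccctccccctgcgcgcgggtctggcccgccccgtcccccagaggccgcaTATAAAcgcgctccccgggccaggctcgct
TSC22D3: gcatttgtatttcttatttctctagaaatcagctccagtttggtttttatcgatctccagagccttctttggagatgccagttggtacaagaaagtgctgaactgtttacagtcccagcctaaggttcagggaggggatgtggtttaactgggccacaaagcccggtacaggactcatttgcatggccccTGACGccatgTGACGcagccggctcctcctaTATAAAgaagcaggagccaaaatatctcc
The PER1 window held an E-box starting 173 bases before the start and the hexamer AGGTCA, read on the other strand, at 144 bases. The DUSP1 window held a full cAMP response element at 125 bases, the core TGACG at 4 places (172, 125, 122 and 111 bases), an E-box at 108 bases that overlaps the last of them, and a TATA box at 30 bases. In the TSC22D3 window the core TGACG stood at 60 and 50 bases and a TATA box at 29 bases. The KLF9 window held none of the motifs, and a further TSC22D3 window, not shown, held the core ACANNNTGT at 208 bases and the core TGACG at 123 bases. Over all 35116 windows in the table, the shares with a match were 6.34% for the E-box, 1.65% for the full cAMP response element, 21.2% for TGACG, 10.7% for TATAAA, 12.1% for AGGTCA, 12.4% for AGAACA and 4.61% for ACANNNTGT. The full glucocorticoid and T3 elements were in 0.00285% and 0.0142% of the windows and in none of these 4 genes. A match describes letters and is not evidence that a factor was bound.

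A wider search took 10 kb on each side of every GENCODE transcript start in GRCh37 and allowed 1 letter to differ from the full element. A match to the glucocorticoid element was found in an intron of PER1 (chr17:8057778-8057792, plus strand), 1881 bases downstream of the nearest start, and in an intron of TSC22D3 (chrX:107011074-107011088, plus strand), 7929 bases downstream. They are shown with the outer hexamers in capitals.
PER1: GGAACAtcaTGTTCT
TSC22D3: AGCACAgtaTGTTCT
KLF9, DUSP1 and CEBPD had 0 matches in their windows. Each of them has 1 annotated transcript, against 18 for TSC22D3 and 19 for PER1, so less sequence may have been searched for them. Of 20136 protein-coding genes, 16.0% had at least 1 such match, and of the 2143 of them that are listed here, 18.9%. The T3 element with 1 letter allowed to differ was found 4 times near TSC22D3, 3 times near PER1, 2 times near CEBPD and 0 times near KLF9 and DUSP1, but 68.5% of the protein-coding genes had a match, so these counts separate little.

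Expression of 4 genes, CEBPD, PER1, KLF9 and TSC22D3, was higher in HM, and that of DUSP1 was lower. CEBPD changed most, PER1 and KLF9 by about 1 on the log2 scale, and TSC22D3 least. In the plot of the 5 genes by library, the GM and HM libraries are apart for each gene, as they are for 99.0% of all listed genes.

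**Figure D1:**
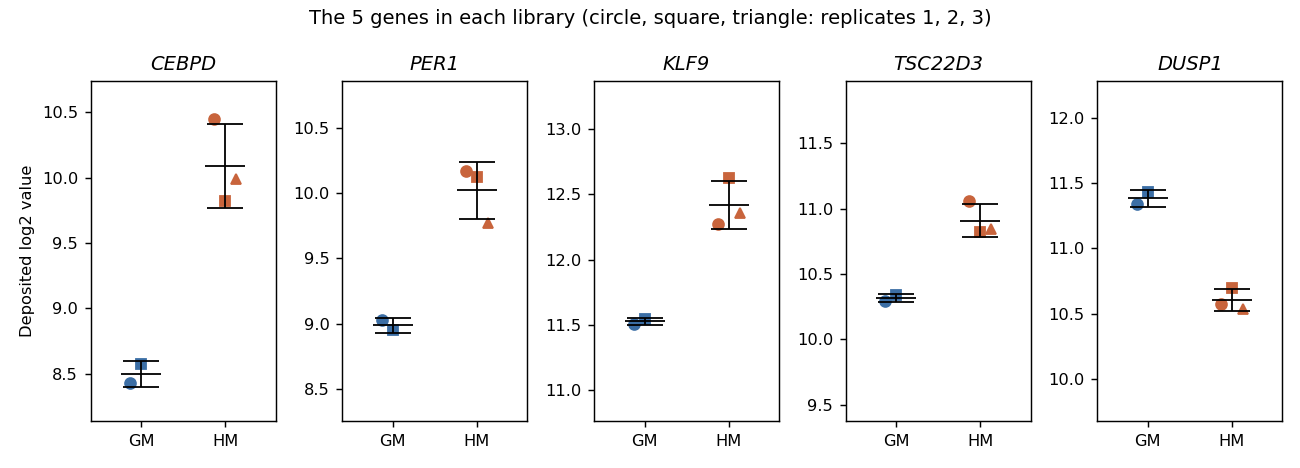
Deposited log2 value (vertical axis) of each of the 5 genes in the 2 GM libraries (blue) and the 3 HM libraries (orange), with the mean and SD of each medium as bars and replicates 1, 2 and 3 as circle, square and triangle; the panels have different ranges of the same height. HM points lie above GM points for CEBPD, PER1, KLF9 and TSC22D3 and below them for DUSP1.

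CEBPD, whose product takes part in inflammatory and differentiation programmes and which lies at chr8:48649475-48650726 of GRCh37, had log2 values of 8.43 and 8.57 in GM replicates 1 and 2, and of 10.45, 9.82 and 9.99 in HM replicates 1, 2 and 3. HM replicate 1 was the highest, and the lowest HM library was 1.25 above the highest GM library. The means were 8.50 ± 0.10 (SD, n = 2) and 10.09 ± 0.32 (SD, n = 3), a difference of 1.59 (SE 0.19, limma adjusted p = 0.000169). Without HM replicate 1 the difference was 1.41 (limma adjusted p = 5.56e-05).

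PER1, a clock gene that glucocorticoids induce directly, had log2 values of 9.03 and 8.95 in GM and of 10.16, 10.12 and 9.77 in HM. HM replicate 3 was the lowest of the HM libraries and still 0.74 above the higher GM library. The difference between 8.99 ± 0.056 (SD, n = 2) and 10.02 ± 0.22 (SD, n = 3) was 1.03 (SE 0.16, limma adjusted p = 0.000482), and 0.96 without HM replicate 1 (limma adjusted p = 0.000525).

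KLF9, which answers to both glucocorticoids and T3 in other cells, had log2 values of 11.51 and 11.55 in GM and of 12.28, 12.63 and 12.36 in HM. Here HM replicate 1 was the lowest and replicate 2 the highest, unlike in CEBPD, PER1 and TSC22D3, where replicate 1 was the highest. The difference between 11.53 ± 0.029 (SD, n = 2) and 12.42 ± 0.18 (SD, n = 3) was 0.89 (SE 0.13, limma adjusted p = 0.000442), and 0.96 without HM replicate 1 (limma adjusted p = 0.000187).

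TSC22D3, among the most widely used markers of glucocorticoid action, had log2 values of 10.30 and 10.34 in GM and of 11.06, 10.82 and 10.85 in HM. The libraries did not overlap, with a gap of 0.48. The difference between 10.32 ± 0.031 (SD, n = 2) and 10.91 ± 0.13 (SD, n = 3) was 0.59 (SE 0.13, limma adjusted p = 0.00207), and 0.52 without HM replicate 1 (limma adjusted p = 0.00201). The call was lost after median centring of the libraries (difference 0.24, limma adjusted p = 0.0741) and after quantile normalization (0.17, limma adjusted p = 0.187). Its difference is also near the low end for listed genes of similar mean value. Of the 231 listed genes that were higher in HM and had a mean value within 0.5 of that of TSC22D3, 206 had a larger difference, and the smallest difference among them was 0.55.

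DUSP1, which both glucocorticoids and mitogens such as serum induce in many cells, had log2 values of 11.34 and 11.43 in GM and of 10.58, 10.69 and 10.53 in HM. Each HM library was below both GM libraries, by at least 0.64. The difference between 11.38 ± 0.064 (SD, n = 2) and 10.60 ± 0.084 (SD, n = 3) was -0.78 (SE 0.12, limma adjusted p = 0.000512), and -0.77 without HM replicate 1 (limma adjusted p = 0.000427).

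Thus 4 of the 5 genes were called higher in HM at an adjusted p under 0.05, against 62.5% of all listed genes, and 1 was called lower, against 36.5%. CEBPD and PER1 were called higher by at least 1, against 11.8% of all listed genes. PER1 lay close to that limit, with a difference from 0.59 to 1.16 over the alternative processings given below. For CEBPD the difference ranged from 1.18 to 1.72. No gene of the 5 was called lower by at least 1, against 7.05%, the difference of DUSP1 being -0.78. Among all increases, CEBPD ranked 65, PER1 288, KLF9 453 and TSC22D3 1232, and DUSP1 ranked 368 among the decreases. The exact two-sided permutation test over the 5 libraries gave p = 0.1 for each gene, the smallest p that its 10 arrangements allow. The differences of PER1 and KLF9 were 0.14 apart, less than the SE of 0.16 of the former, whereas CEBPD was 0.56 above PER1 and KLF9 0.30 above TSC22D3. These gaps between genes were not tested.

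**Figure D2:**
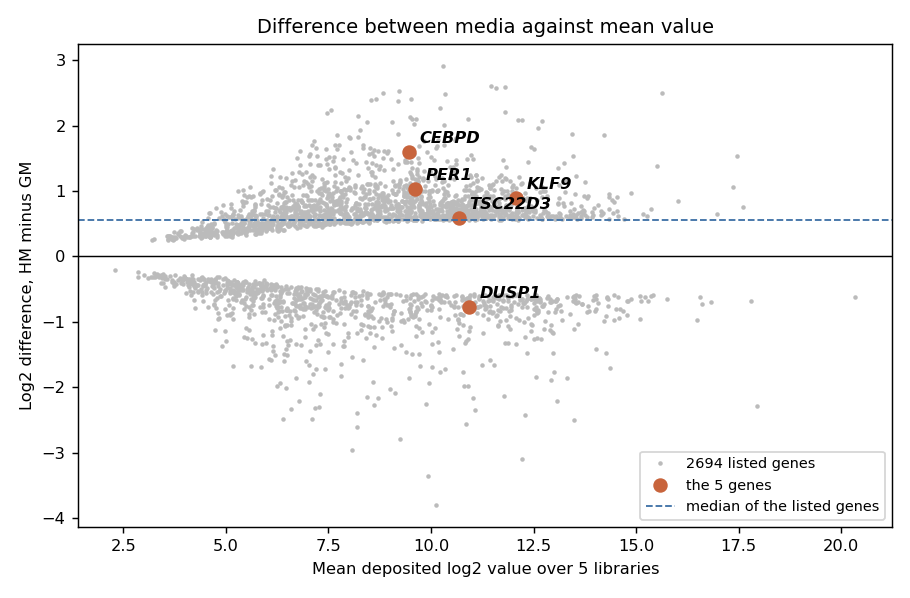
Log2 difference, HM minus GM (vertical axis), against the mean deposited log2 value over the 5 libraries (horizontal axis) for the 2694 listed genes (grey), with the 5 genes in orange and the median difference of 0.56 as a dashed line. Hardly any listed gene lies near 0, and among genes with a mean of at least 8 the smallest absolute difference is 0.49; TSC22D3 lies near that edge, CEBPD well away from it.

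The scale of the libraries bears on these sizes. Of the listed genes 1707 were higher and 987 lower in HM. Centring each library on its median over the listed genes lowered every difference by 0.35 and left 845 genes called higher and 987 lower, against 1683 and 984 on the values as deposited. Relative to that shift, CEBPD differed by 1.24, PER1 by 0.68, KLF9 by 0.54 and DUSP1 by -1.13, all with the direction and call of the deposited values, while TSC22D3 differed by 0.24 and was not called. The limma adjusted p of TSC22D3 over the alternatives other than centring and quantile normalization reached at most 0.0282. A listed set with more increases than decreases has a raised median in HM by its make-up, so which scale is nearer to the RNA content of the cells was not tested.

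**Figure D3:**
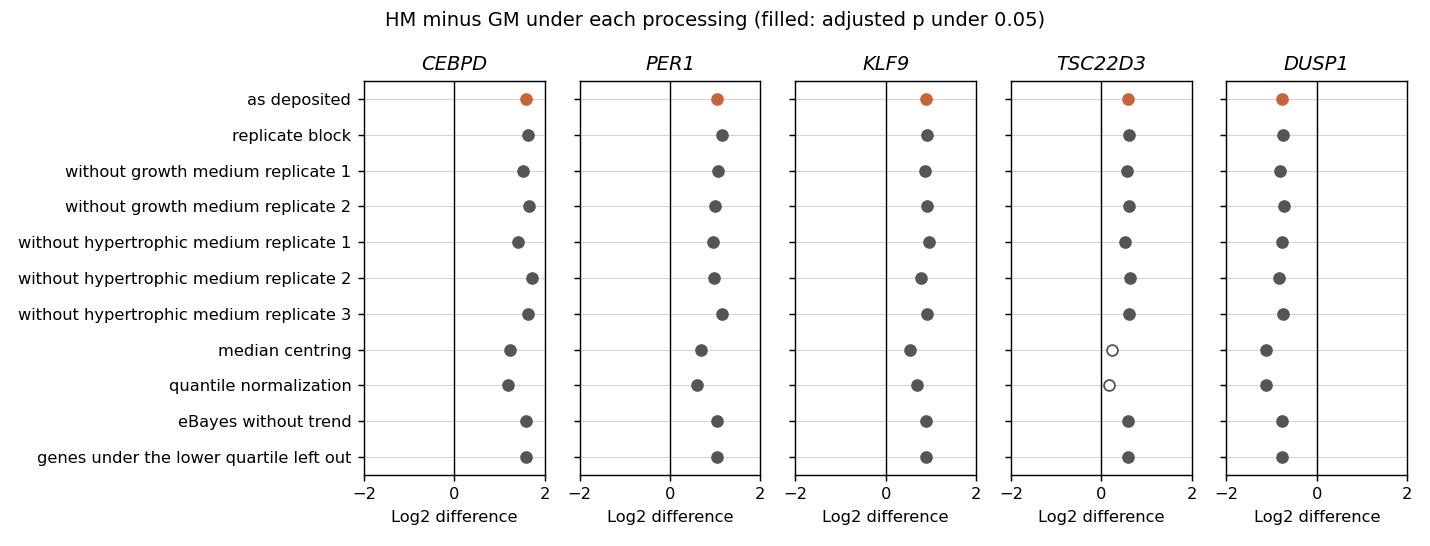
Log2 difference, HM minus GM (horizontal axis), of the 5 genes for the values as deposited (orange) and under each of the 10 alternatives (grey), with filled points for an adjusted p under 0.05. The open points are those of TSC22D3 under median centring (0.24) and quantile normalization (0.17).

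Of 50 glucocorticoid-induced genes, 19 were listed, of which 12 were called higher and 7 lower, beside 62.5% and 36.5% of all listed genes, with a median difference of 0.59 beside 0.56 over all listed genes. After median centring 7 were called in each direction, beside 845 higher and 987 lower of the 2694 listed genes. Leaving aside the 5 genes above, 14 remained, 8 higher and 6 lower (57.1% higher, beside 63.4% of all listed genes), with a median of 0.50. Apart from CEBPD, the largest increase was that of IL1R1, the signalling receptor of interleukin-1, with log2 values of 10.86 and 10.90 in GM and of 12.67, 12.36 and 12.02 in HM (difference 1.47, SE 0.18, limma adjusted p = 0.000169). ZFP36, which encodes the mRNA-destabilizing protein tristetraprolin, differed by 0.86, the NF-κB inhibitor gene TNFAIP3 and the repressor gene BCL6 by 0.75 each, and FOXO1 by 0.66. Among the decreases, ANXA1, the gene of the glucocorticoid-induced protein annexin A1, had log2 values of 13.05 and 13.12 in GM and of 11.94, 11.79 and 12.36 in HM (difference -1.05, SE 0.17, limma adjusted p = 0.000589). KLF15 differed by -0.85, BIRC3 by -0.79, CRISPLD2 by -0.73 and GADD45B by -0.61. Genes of this list therefore moved in both directions, as DUSP1 and the other 4 genes did. FKBP5, a frequent reporter of glucocorticoid action, is not among the listed genes.

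Of 20 genes that glucocorticoids repress, 9 were listed, 6 called lower, beside 36.5% of all listed genes, and 3 called higher, beside 62.5%, with a median difference of -2.17 beside 0.56. After median centring 6 were called lower and 2 higher, the exception being MMP13 with 0.35. The centred counts over the 2694 listed genes were 987 lower and 845 higher. MMP1, which encodes a collagenase of cartilage breakdown, had the largest decrease of all listed genes, with log2 values of 12.40 and 12.42 in GM and of 8.29, 9.07 and 8.48 in HM (difference -3.80, SE 0.21, limma adjusted p = 4.94e-06). The cytokine genes IL1B, LIF, CXCL8, IL6 and IL11 were lower, with differences of -2.49, -2.36, -2.33, -2.17 and -1.99. IL6 was 10.00 and 10.02 in GM and 8.44, 7.64 and 7.43 in HM, so HM replicate 1 was the nearest to GM. The chemokine gene CCL2 was instead higher, with 8.54 in both GM libraries and 9.42, 9.55 and 9.52 in HM (difference 0.96, SE 0.13, limma adjusted p = 0.000336), and so were ICAM1 (0.90) and MMP13 (0.70).

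**Figure D4:**
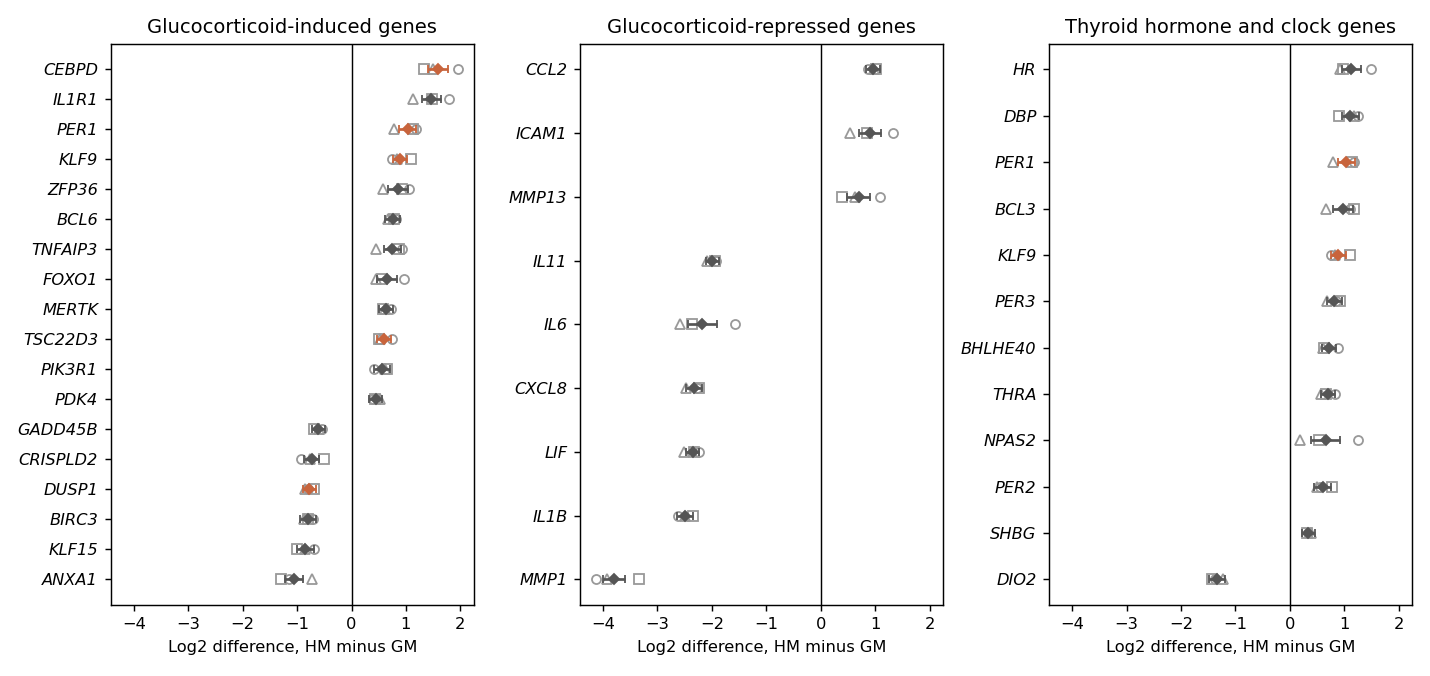
Log2 difference, HM minus GM (horizontal axis), of listed genes of the glucocorticoid-induced, glucocorticoid-repressed and pooled thyroid hormone and clock lists, as the mean with its SE (filled, orange for the 5 genes) and for each HM library minus the GM mean (open; circle, square and triangle for replicates 1, 2 and 3). The induced genes shown range from -1.05 (ANXA1) to 1.59 (CEBPD), the repressed ones from -3.80 (MMP1) to 0.96 (CCL2), and DIO2 is the only decrease in the right panel.

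NR3C1, the gene of the glucocorticoid receptor, is not among the listed genes. Of 17 genes of the receptor machinery 2 were listed, both called higher, beside 62.5% of all listed genes. Neither was called after median centring, beside 845 of the 2694 listed genes called higher. The coactivator gene NCOA2 differed by 0.57, and by 0.22 after median centring. Of 13 genes of thyroid hormone receptors, transporters and deiodinases, 3 were listed, 2 called higher and 1 lower, beside 62.5% and 36.5% of all listed genes. After median centring 1 was called in each direction, beside 845 higher and 987 lower of the 2694 listed genes. THRA, the gene of thyroid hormone receptor alpha, had log2 values of 10.12 and 10.24 in GM and of 11.01, 10.85 and 10.76 in HM (difference 0.69, SE 0.13, limma adjusted p = 0.00115). DIO2, whose enzyme makes T3 from thyroxine, was lower, with 8.42 in both GM libraries and 7.05, 6.99 and 7.19 in HM (difference -1.34, SE 0.15, limma adjusted p = 0.000126). THRB is not among the listed genes.

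All 5 listed of 18 T3-induced genes were called higher, beside 62.5% of all listed genes, with a median difference of 0.89 beside 0.56. KLF9 is among these genes and the median is its own value, so the list does not stand apart from KLF9. After median centring 4 of the 5 were called higher, beside 845 of the 2694 listed genes. HR, which encodes the thyroid hormone receptor corepressor hairless, had log2 values of 11.77 and 11.70 in GM and of 13.23, 12.71 and 12.65 in HM (difference 1.13, SE 0.17, limma adjusted p = 0.000524). BCL3 differed by 0.98 and KLF9 by 0.89. SHBG had the smallest difference, 0.34, which was -0.01 after median centring and thus turned its sign.

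PER1 belongs to a list of 25 circadian clock genes, of which 6 were listed and all 6 called higher, beside 62.5% of all listed genes, with a median difference of 0.76 beside 0.56 over all listed genes. After median centring 4 of the 6 were called higher, and 845 of the 2694 listed genes. DBP, a clock output gene, had log2 values of 8.53 and 8.56 in GM and of 9.80, 9.45 and 9.72 in HM (difference 1.11, SE 0.15, limma adjusted p = 0.000294). PER3 differed by 0.81, BHLHE40 by 0.71, NPAS2 by 0.66 and PER2 by 0.60, and NPAS2 and PER2 were the genes whose calls were lost on centring. The values of NPAS2 were 7.73, 7.01 and 6.67 in HM replicates 1, 2 and 3 and 6.40 and 6.56 in GM, so its increase was largest in replicate 1.

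Among relatives of the other genes, 4 of 18 KLF genes were listed, 3 called higher and 1 lower, beside 62.5% and 36.5% of all listed genes. KLF13, KLF9 and KLF12 were higher by 1.10, 0.89 and 0.83, and KLF15 differed by -0.85, all 4 with the same call after median centring. Of 23 dual specificity phosphatase genes 3 were listed, 1 called higher and 2 lower, beside the same shares. DUSP1 and DUSP8, both of the MAP kinase phosphatase group, were lower, with differences of -0.78 and -0.82, and DUSP15 was higher by 0.88, with the same calls after median centring. CEBPD was the only listed gene of 7 in the C/EBP list and TSC22D3 the only listed gene of 4 in the TSC22 domain list. DUSP1 is also an immediate early gene, and of 32 immediate early and ERK feedback genes 9 were listed, 5 called higher and 4 lower, beside 62.5% and 36.5% of all listed genes. Their median difference was 0.57, beside 0.56 over all listed genes. After median centring 4 were called in each direction, beside 845 higher and 987 lower of the 2694 listed genes. JUN, with log2 values of 12.63 and 12.65 in GM and 11.60, 11.68 and 11.79 in HM, CCN1 and ATF3 were lower as DUSP1 was, with differences of -0.95, -0.94 and -0.79. FOS and EGR1 were higher by 1.42 and 1.57. The largest increase was that of SPRY1, an inhibitor of receptor tyrosine kinase signalling, with 6.80 and 7.06 in GM and 10.16, 8.56 and 8.49 in HM (difference 2.14, SE 0.43, limma adjusted p = 0.0016), and HM replicate 1 stood far above the other HM libraries.

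The genes most like each of the 5 were taken by the Euclidean distance over the 5 libraries between values from which the GM mean of the gene was subtracted. For TSC22D3 these were C6orf226, CREBRF and SFXN3, at distances of 0.041, 0.045 and 0.051 on the log2 scale. For PER1 they were CASP2, PLXND1 and SREBF2, at 0.060, 0.082 and 0.098, and for KLF9 CAPN5, FGFR4 and SLC6A12, at 0.030, 0.080 and 0.123. DUSP1 was nearest to the noncoding gene PVT1, to ADTRP and to the small nucleolar RNA gene SNORD15A, at 0.049, 0.077 and 0.080. CEBPD had more distant neighbours, the cartilage collagen gene COL2A1, SERPINA3 and C3orf80, at 0.172, 0.179 and 0.261. COL2A1 was 7.57 and 7.83 in GM and 9.50, 9.03 and 9.16 in HM, highest in HM replicate 1 and lowest of HM in replicate 2, the order that CEBPD had. The 5 genes were not close to each other by this measure: the nearest pair, PER1 and KLF9, was 0.441 apart, and KLF9 ranked 309 among the listed genes by its distance to PER1.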

How the data were processed

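Total RNA libraries of TC28a2 cells in growth medium (2) and hypertrophic medium (3), grouped by their labels, were analysed. Per the methods of the study, the authors trimmed the reads, aligned them to hg19 with HISAT2, counted NCBI transcripts with StringTie, dropped genes that had no count in some library, and then log2-transformed and RLE-normalized the counts, so that each library was scaled by a median ratio over genes. The authors compared the media with the DESeq2 Wald test. The submitters' processing notes instead name cutadapt 1.18, TopHat2 2.0.13, Cuffdiff 2.2.1 and a rat genome build. The listed symbols are human, and which notes apply is not settled here. The deposited log2 values were used as they are, 1 per gene and library for 2694 genes. Nearly all values within a library were distinct, also under 6, so they are no simple function of whole counts, and depth is unknown.

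The fit used limma 3.58.1 under R 4.3.3 (lmFit, eBayes with a mean-variance trend, no block), with Benjamini-Hochberg adjustment over the 2694 genes and calls at an adjusted p under 0.05. It was tested on simulated data. An exact permutation test over the libraries was added for each of the 5 genes. The 12 pathway and 7 marker lists, some with older symbols as extra entries, were described by counts and medians. Named genes were the 5 genes, listed genes of these lists, at least the largest increase and decrease of each, and the 3 nearest genes by distance. Some genes that this rule covers are not reported here. The members and lists were chosen with earlier results of these data known. Coordinates came from GENCODE lifted to GRCh37 and promoters from RefSeq. Tables and plots were made with Python 3.11.15, pandas 2.3.3 and matplotlib 3.10.9. The alternatives were a replicate block, the omission of single libraries, median centring, quantile normalization, eBayes without a trend, genes under the lower quartile of means left out, other thresholds and, added after seeing the data, the wider search for promoter elements.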

Additional observations from a re-analysis of the deposited data

How the results depend on the processing

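Each of the 5 genes was refitted under 10 alternatives, and 48 of the 50 refits kept direction and call. These refits are not independent checks. Fitting eBayes without a trend or leaving out the lower quartile cannot change a difference, only its p-value. The exceptions were TSC22D3 under median centring (difference 0.24) and quantile normalization (0.17); the cause was not tested. Over the alternatives the difference ranged from 1.18 to 1.72 for CEBPD, from 0.59 to 1.16 for PER1, from 0.54 to 0.96 for KLF9, from 0.17 to 0.64 for TSC22D3 and from -1.13 to -0.73 for DUSP1, with highest limma adjusted p of 0.00128, 0.00547, 0.00705, 0.187 and 0.0115. With the replicate number as a block (replicate block), the differences were 1.64 for CEBPD, 1.16 for PER1, 0.92 for KLF9, 0.62 for TSC22D3 and -0.75 for DUSP1, and no call of the 5 changed. Only HM has a replicate 3, so these are the same differences as without HM replicate 3 and no separate check of their size. The numbers do not pair the samples: over genes, replicate 1 minus replicate 2 correlated between the media at -0.0253. Genes called higher numbered 845 under median centring and 318 with a difference of at least 1 required, and genes called lower 653 with the lower quartile left out, where fewer genes were tested, and 190 with a difference of at least 1. Glucocorticoid-induced genes called higher numbered 7 under median centring. Leaving out a GM library leaves 1, which is assumed to vary like the others. Alternatives for counts or linear values were not run. Only genes selected for a difference are listed, the precision rests on 2 and 3 libraries of 1 cell line, and depth is unknown, so counting error could not be set against any value.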

Other observations

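PER1 is also a target of cAMP signalling, and of 15 genes of cAMP and CREB signalling 7 were listed and all 7 were called higher in HM, beside 62.5% of all listed genes, with a median difference of 0.90 beside 0.56. After median centring 4 of the 7 were called higher, beside 845 of the 2694 listed genes. Among them were 3 genes of cAMP-degrading phosphodiesterases. PDE4B had log2 values of 6.23 and 6.16 in GM and of 8.14, 7.23 and 7.46 in HM replicates 1, 2 and 3 (difference 1.41, SE 0.25, limma adjusted p = 0.000938). PDE4D differed by 1.03 (SE 0.12, limma adjusted p = 0.000132) and PDE4A by 0.90 (SE 0.16, limma adjusted p = 0.00101), and all 3 were called after median centring. CRTC3, FOSB and NR4A3 differed by 0.58, 0.57 and 0.48 and were not called after it.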
